A study of Mus musculus with 16 samples.

Results

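Adult striatum at 12 weeks was compared between 2 libraries labelled Gad2-Cre;Rai1CKO and 2 labelled wild type, which are 4 of the 16 libraries of a study of Rai1 conditional knockout mice. The comparison took every gene with at least 1 RPKM in at least 2 of these 4 libraries, where RPKM is a read count scaled for gene length and library depth. Of 24176 genes listed, 10546 passed this filter, 13630 did not, and 5356 of the latter were at 0 in all 4 libraries. At the edge of the filter, 274 genes had a second highest value from 1 to under 1.1 RPKM and 313 from 0.9 to under 1. All 4 libraries came from mice labelled B6/FVB, generation F1, and both groups were 12 weeks old. Cre recombinase was driven by Gad2, so that deletion is aimed at GABAergic neurons and not at the glia, vessels or cortical inputs that a dissected striatum also holds. The other sets were striatum at 3 weeks with the same driver and strain label, cortex at 3 weeks with Nestin-Cre in B6/FVB F1 mice, and hypothalamus at 8 weeks with Vglut2-Cre in B6/129 F1 mice, each with 2 wild-type and 2 knockout libraries and no library shared between sets. Not given in the sources used here are the deleted part of Rai1, whether the wild-type mice carried Cre or the floxed allele, and whether replicates were separate animals. The p-values therefore reflect only how far replicate libraries lie apart, and that spread may be technical.

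Rai1 encodes a nuclear protein that binds chromatin, and loss of a copy of the human gene gives Smith-Magenis syndrome. Most striatal neurons are GABAergic spiny projection neurons, which receive glutamate from cortex and thalamus and dopamine from the midbrain, and which divide into a direct pathway marked by the dopamine receptor Drd1 and an indirect pathway marked by Drd2. Cadherins and protocadherins are calcium-dependent adhesion proteins by which neurons recognise partners, semaphorins are guidance cues read by plexins and neuropilins, and leucine-rich repeat proteins such as the Slitrk family organise synapses from the membrane.

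By an estimate from the RPKM step that a single read makes, the 4 libraries held 21699736 to 23576795 reads. Scn4b and Drd1, markers of spiny projection neurons, were high, as the tissue label has it. Scn4b was at 167 and 219 RPKM in the wild-type libraries and 251 and 196 in those labelled knockout, and Drd1 at 63.8 and 77.7 against 79.0 and 68.5. Libraries were scaled by median-ratio factors of 0.872 and 1.07 for wild type and 1.07 and 0.995 for knockout, so deposited values of wild-type replicate 1 run low for most genes. Log2 changes below are on the scaled log2(RPKM + 0.5) scale, labelled knockout minus labelled wild type, with adjusted p-values from limma over all 10546 genes.

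Rai1 itself went against the label. It was at 5.08 and 4.88 RPKM in the wild-type libraries and at 12.3 and 13.3 in those labelled knockout. The knockout libraries were both higher and the groups did not overlap, with a log2 change of 1.19 (SE 0.17, limma adjusted p = 0.0191). The value covers the whole gene, so reads from a deleted part cannot be separated from the rest, and every direction given here is that of the library labels. The call was lost without wild-type replicate 2 (limma adjusted p = 0.274) or without knockout replicate 1 or 2 (0.125 and 0.264). In striatum at 3 weeks Rai1 also had a positive estimate (1.01), in hypothalamus too (0.94), and in cortex a negative one (-0.40). The difference between 12 and 3 weeks was 0.18 (SE 0.24, adjusted p = 0.746). Of the 25 tested genes that flank Rai1 none passed, and their log2 changes ran from -0.33 to 0.29.

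In adult striatum 6 genes were lower in the libraries labelled knockout and 1, Rai1, was higher, which are 0.0569% and 0.00948% of the genes tested and together 0.0664%. The lower genes were Htr2a, a serotonin receptor, Cdh9, a cadherin, Sema3a and Sema3e, secreted guidance cues, Slitrk1, a synaptic adhesion protein, and Mme, a membrane peptidase. In all 7 genes the knockout libraries lay on 1 side of the wild-type libraries. Over all tested genes 19.8% were lower and 20.9% higher with no overlap, and the 7 were chosen by these same values. At an unadjusted p under 0.05 there were 351 lower genes (3.33%) and 397 higher genes (3.76%), 7.09% in all, and the median log2 change of all genes was 0.0045. The test shared its spread over all 16 libraries. With weights that let each group have its own spread, 40 genes passed, 34 lower and 6 higher, and these held all 7. Without wild-type replicate 2, or without either knockout library, 3 passed.

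**Figure D1:**
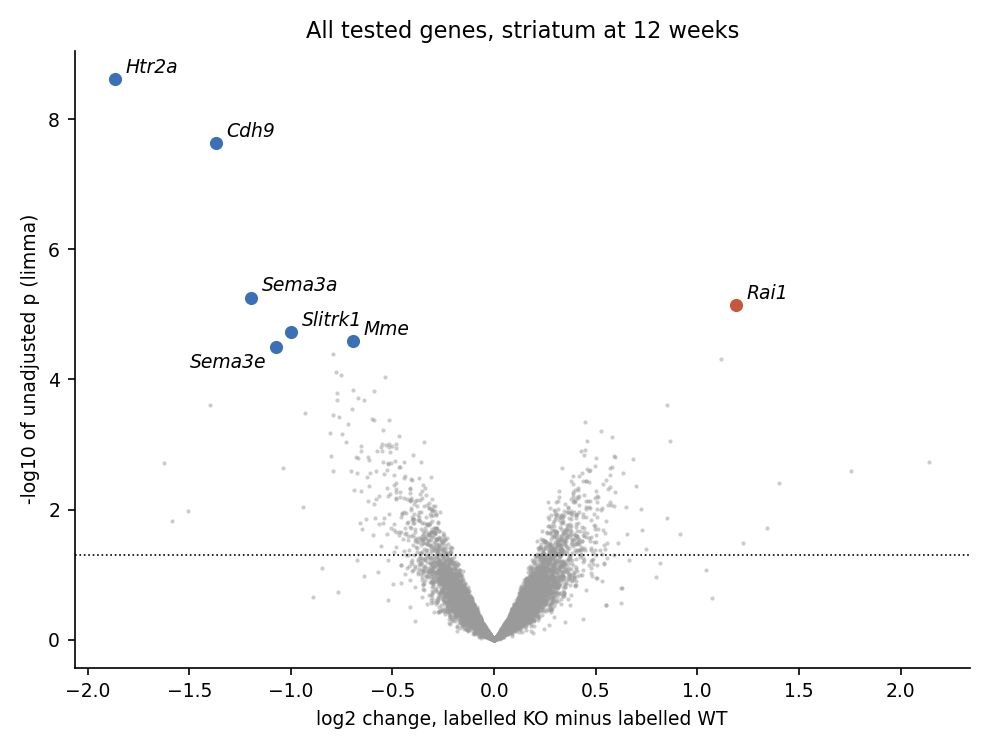
Log2 change (x axis) against -log10 of the unadjusted limma p (y axis) for each of the 10546 genes, with the genes past an adjusted p of 0.05 named and the dotted line at an unadjusted p of 0.05. Htr2a and Cdh9 stand at the top left with log2 changes of -1.86 and -1.37, and Rai1 alone among the named genes on the right at 1.19.

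Promoter windows of these genes are shown because the 6 lower genes each held fewer CpG dinucleotides than the median tested gene. The comparison did not use this feature. The windows run from 250 bases before to 50 after a RefSeq gene start on build GRCm38.p6 (the deposited values were made on mm9), on the strand of the gene and at its most upstream listed start, with each CpG in capitals. The windows of Htr2a (chr14:74640624-74640923, plus strand), Cdh9 (chr15:16728665-16728964, plus), Sema3a (chr5:13396534-13396833, plus), Sema3e (chr5:14025026-14025325, plus) and Rai1 (chr11:60104763-60105062, plus) follow.
Htr2a: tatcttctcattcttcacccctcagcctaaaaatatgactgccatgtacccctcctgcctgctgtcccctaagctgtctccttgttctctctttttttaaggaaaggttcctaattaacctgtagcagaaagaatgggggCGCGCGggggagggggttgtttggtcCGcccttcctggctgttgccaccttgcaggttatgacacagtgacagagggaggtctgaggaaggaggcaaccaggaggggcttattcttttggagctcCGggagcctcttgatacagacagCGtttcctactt
Cdh9: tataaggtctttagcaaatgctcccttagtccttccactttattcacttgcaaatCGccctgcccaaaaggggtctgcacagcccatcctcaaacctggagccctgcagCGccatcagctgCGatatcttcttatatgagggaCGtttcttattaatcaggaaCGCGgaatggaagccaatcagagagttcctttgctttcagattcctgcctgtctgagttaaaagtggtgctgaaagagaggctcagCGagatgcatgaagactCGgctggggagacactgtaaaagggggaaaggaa
Sema3a: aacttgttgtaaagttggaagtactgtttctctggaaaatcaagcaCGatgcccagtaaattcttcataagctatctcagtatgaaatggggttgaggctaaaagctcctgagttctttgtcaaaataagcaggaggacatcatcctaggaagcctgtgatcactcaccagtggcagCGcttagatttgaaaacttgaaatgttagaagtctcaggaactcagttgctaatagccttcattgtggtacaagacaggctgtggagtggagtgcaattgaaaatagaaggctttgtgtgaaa
Sema3e: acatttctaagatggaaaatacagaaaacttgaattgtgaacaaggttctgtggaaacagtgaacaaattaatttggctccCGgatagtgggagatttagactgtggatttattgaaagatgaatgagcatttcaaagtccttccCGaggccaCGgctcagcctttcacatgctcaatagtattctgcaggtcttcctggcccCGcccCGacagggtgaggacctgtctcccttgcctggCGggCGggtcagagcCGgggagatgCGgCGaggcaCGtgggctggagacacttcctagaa
Rai1: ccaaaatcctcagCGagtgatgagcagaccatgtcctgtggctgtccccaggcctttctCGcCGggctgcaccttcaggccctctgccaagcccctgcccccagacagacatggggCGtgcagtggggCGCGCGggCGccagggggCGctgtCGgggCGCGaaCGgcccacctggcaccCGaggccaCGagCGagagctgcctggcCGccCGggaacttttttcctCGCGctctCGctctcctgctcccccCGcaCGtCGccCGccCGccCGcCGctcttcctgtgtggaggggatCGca
Sema3a held 2 CpG, Htr2a 6, Cdh9 8 and Sema3e 11, and the windows of Mme and Slitrk1 held 4 and 9. The median over 7919 tested genes with an entry was 22. Of those genes, 2.4% had no more CpG than Sema3a, 8.4% no more than Htr2a, 11.8% no more than Cdh9 and 17.6% no more than Sema3e. For Mme and Slitrk1 the shares were 5.4% and 13.6%. The background took tested genes of every kind, and neuronal genes were not set apart in it. Rai1, the gene that was higher, held 29 CpG, and 73.9% of genes had no more than that. Searched on both strands, the TATA motif TATAAA was in none of the 7 windows and in 6.24% of all tested genes' windows, and the E-box CACGTG was in the Sema3e window alone and in 10.57% of all. These letters are a description of the windows, and no factor's binding was measured.

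Htr2a, the serotonin 2A receptor, a Gq-coupled receptor, changed the most. It was at 4.50 and 5.38 RPKM in the wild-type libraries and at 1.13 and 1.01 in the knockout libraries. Both knockout libraries were far below both wild-type libraries, 3.64-fold lower on the log2(RPKM + 0.5) scale, with a log2 change of -1.86 (SE 0.14, limma adjusted p = 2.54e-05). By the depth estimate these values stand for about 548 and 677 reads against 141 and 134. The call held in all 19 alternative settings, with log2 changes from -2.19 to -1.58.

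The other serotonin receptors moved less. Of 14 listed, 7 passed the filter, and Htr2a was the only one called (0.0569% of all genes were called lower). Htr2c, the related 2C receptor, was at 5.82 and 7.08 RPKM against 4.48 and 3.78, with no overlap and a log2 change of -0.67 that did not pass (adjusted p = 0.122). Htr4, a Gs-coupled receptor, was at 1.59 and 1.48 against 2.18 and 2.44 (log2 change 0.39, adjusted p = 0.659). Htr1b, a presynaptic autoreceptor and heteroreceptor, was at 9.51 and 10.7 against 9.10 and 10.1, and its groups overlapped. The median change of the 7 was -0.19, and 7 other serotonin receptor genes, among them Htr1a and Htr7, lay below the filter.

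Cdh9, a type II classical cadherin, was at 7.20 and 10.5 RPKM in the wild-type libraries and at 3.39 and 3.17 in the knockout libraries. The wild-type libraries differed from each other, with replicate 2 the higher, and both exceeded the knockout libraries. The log2 change was -1.37 (SE 0.12, limma adjusted p = 0.000125), and it held in all 19 alternative settings, from -1.49 to -1.25. Cdh9 also stands in a list of markers of claustrum, septum and amygdala, regions that border the striatum. All 8 tested members of that list had negative changes (median -0.18), of which Cdh9 alone reached an unadjusted p under 0.05, and the other 7 ran from -0.30 to -0.02. Over all 14 listed members, 6 were lower and 0 higher with no overlap after scaling, against 19.8% and 20.9% of all tested genes. Among the lower ones were Nr4a2, Nts and Rspo2, which lay below the filter, and 7 of the 14 were highest in wild-type replicate 2. The scaled sum of the 14 listed members was 88.4 and 97.9 in the wild-type libraries against 80.9 and 71.6. The part of RNA from those regions in the Cdh9 value was not tested.

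Most classical cadherins measured had lower values beside it. Of 19 listed, 14 were tested, 1 was called, and 9 were lower and 1 higher at an unadjusted p under 0.05, against 3.33% and 3.76% of all genes. Their median log2 change was -0.31. Cdh18 was at 2.32 and 3.84 against 1.56 and 1.76 RPKM (log2 change -0.77, limma adjusted p = 0.122), and Cdh6 at 1.43 and 1.70 against 0.872 and 0.895 (-0.64, adjusted p = 0.122). In both, the groups did not overlap and the test was not passed. Cdh6 passed the filter through the wild-type libraries alone. Cdh11 (-0.47), Cdh10 (-0.49), Cdh12 (-0.63), Cdh2 (-0.28), Cdh8 (-0.31) and Cdh7 (-0.30) completed the 9. Cdh4, known as R-cadherin, lay the other way at 1.51 and 1.90 against 2.73 and 2.92 (0.53, adjusted p = 0.207). The count of lower cadherins was 6 to 9 when each library was left out in turn, and 8 without wild-type replicate 2. The 8 tested catenins and other cytoplasmic partners of cadherins had a median change of 0.010, and none reached an unadjusted p under 0.05 in either direction.

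Non-clustered protocadherins, encoded by single genes, had the lowest median of the adhesion families, -0.57. Of 12 listed, 7 were tested, and 6 of these were lower at an unadjusted p under 0.05, against 3.33% of all genes. None was called, and the count was 5 to 6 when each library was left out and 6 without wild-type replicate 2. Pcdh17 was at 8.49 and 12.7 RPKM against 6.66 and 5.90 (log2 change -0.78, limma adjusted p = 0.0798). Pcdh10 was at 11.9 and 12.4 against 8.05 and 8.80 (-0.59, adjusted p = 0.113). Pcdh20 was at 1.35 and 1.37 against 0.627 and 0.774 (-0.70, adjusted p = 0.143). Each of these had both knockout libraries below both wild-type libraries. Pcdh11x (-0.52), Pcdh9 (-0.57) and Pcdh7 (-0.49) lay alike, and Pcdh1 was at 7.58 and 7.87 against 7.36 and 8.58 (-0.05). Pcdh20 passed the filter through the wild-type libraries alone, and Pcdh8, Pcdh12, Pcdh15, Pcdh18 and Pcdh19 lay below it. The members of this list were chosen with earlier results of these data known. With weights per group, Pcdh17, Pcdh10 and Pcdh20 passed, as did Cdh6, Cdh11 and Cdh18 among the cadherins and, in the higher direction, Cdh4. The clustered protocadherins, whose many isoforms are read from a tandem array and may share reads between near-identical members, had 1 lower and 1 higher of 44 at an unadjusted p under 0.05 and a median of -0.05.

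**Figure D2:**
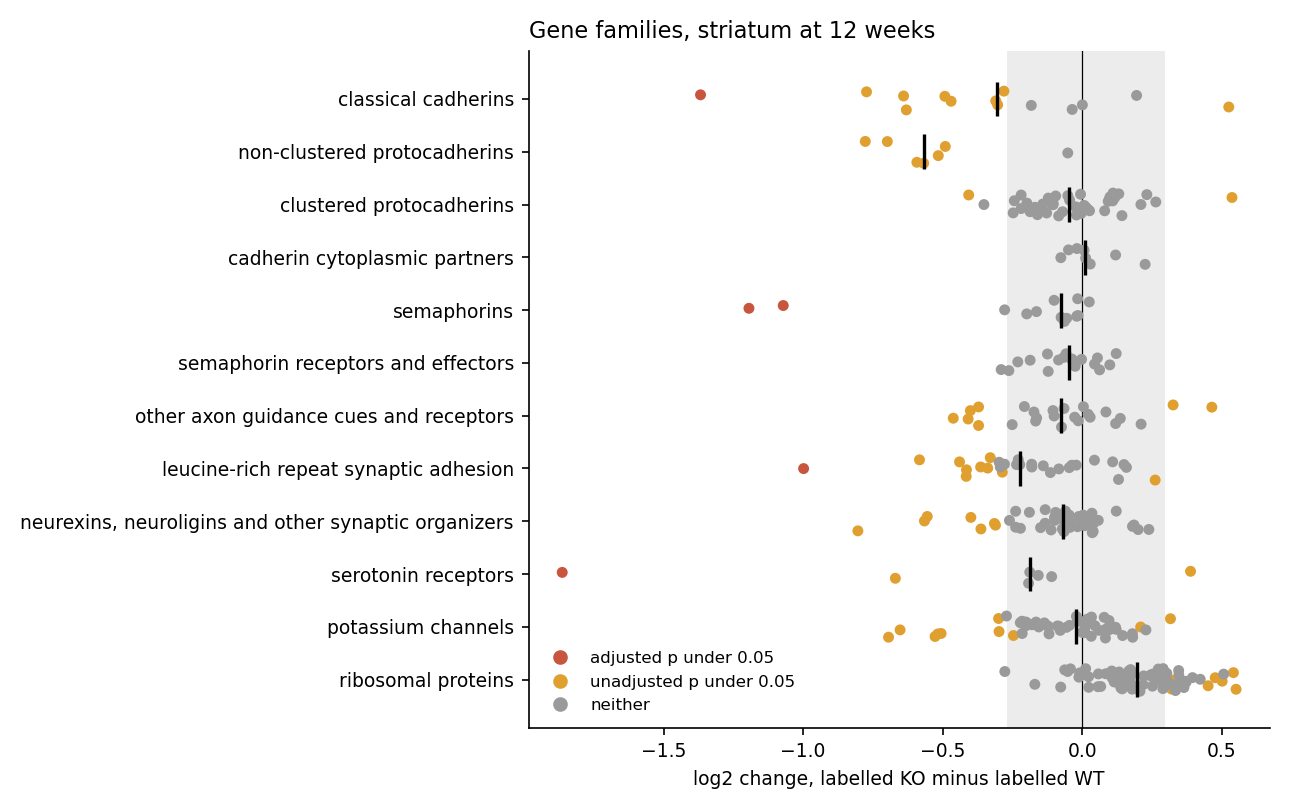
Log2 change of each tested member (points, x axis) of 12 gene families (y axis), with the family median as a black bar and the range from the 5th to the 95th percentile of all tested genes in grey. Red points passed at an adjusted p of 0.05 and yellow points reached an unadjusted p of 0.05. The grey range describes single genes and is no reference for the medians, which were -0.57 for non-clustered protocadherins and -0.31 for classical cadherins beside 0.0045 for all genes.

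Among semaphorins the difference was held by Sema3a and Sema3e, secreted class 3 cues. Sema3a, which repels axons through neuropilin 1 and plexin A receptors, was at 1.88 and 1.74 RPKM in the wild-type libraries and 0.531 and 0.577 in the knockout libraries. Both knockout values were under 1 RPKM, so Sema3a passed the filter through the wild-type libraries alone. The replicates lay close together and the groups far apart, with a log2 change of -1.19 (SE 0.17, limma adjusted p = 0.0191). That call was lost without wild-type replicate 1 (adjusted p = 0.141) or knockout replicate 1 or 2 (0.315 and 0.147). Sema3e, the ligand of plexin D1, was at 3.50 and 4.01 against 1.34 and 1.96. Knockout replicate 1 was the lowest, the groups did not overlap, and the log2 change was -1.07 (SE 0.18, limma adjusted p = 0.0485). It passed without knockout replicate 2 and not without any of the other libraries (adjusted p = 0.274 to 0.583). The next member by p, Sema3c, was at 1.43 and 1.31 against 1.18 and 1.05 and did not pass (adjusted p = 0.83).

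Of 20 listed semaphorins, 13 were tested, 2 were called (0.0569% of all genes were called lower), and the median was -0.08. Of 18 tested plexins, neuropilins and effectors none reached an unadjusted p under 0.05, with changes from -0.29 to 0.12. Nrp1, the receptor for Sema3a, was at 1.66 and 2.41 against 1.91 and 1.6 RPKM (log2 change -0.23, limma adjusted p = 0.785). Of 25 other guidance genes tested, 5 were lower and 2 higher at an unadjusted p under 0.05, against 3.33% and 3.76% of all genes. None was called. The lower ones were the ephrin receptors Epha7 (-0.46), Epha5 (-0.37) and Ephb6 (-0.37), the ligand Efnb2 (-0.41) and the netrin receptor Unc5c (-0.40), and the higher ones Unc5b (0.46) and Epha10 (0.33).

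Slitrk1, a postsynaptic adhesion protein of the Slitrk family, was at 3.75 and 4.66 RPKM in the wild-type libraries and at 1.88 and 2.08 in the knockout libraries. Wild-type replicate 2 was the highest and the groups did not overlap, with a log2 change of -1.0 (SE 0.16, limma adjusted p = 0.0396). Leaving out any of the 4 libraries ended the call (adjusted p = 0.159 to 0.504). Of 29 tested genes of leucine-rich repeat synaptic adhesion, 9 were lower and 1 higher at an unadjusted p under 0.05. Over all genes these shares were 3.33% and 3.76%. In this list 1 was called, against 0.0569% of all genes called lower, and the median was -0.22. Slitrk3 was at 10.7 and 12.3 against 9.18 and 9.0 (-0.42, adjusted p = 0.397) and Lrrn3 at 8.63 and 11.5 against 8.18 and 7.29 (-0.44, adjusted p = 0.325). Flrt2 (-0.58), Lingo1 (-0.41), Lrrtm4 (-0.36), Lrrtm3 (-0.34), Slitrk5 (-0.33) and Flrt3 (-0.29) were the other lower members, and Lrrn2 (0.26) the higher one. The number lower was 5 to 10 when each library was left out.

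The wider set of neurexins, neuroligins, contactins and other synaptic organisers had 7 lower and 0 higher of 42 at an unadjusted p under 0.05. Over all genes these shares were 3.33% and 3.76%. The set had a median of -0.07 and no call. Ncam2, an immunoglobulin-type adhesion molecule, was at 7.29 and 7.43 RPKM against 4.35 and 4.22. The replicates of each group lay within a narrow range and the groups did not overlap (log2 change -0.80, limma adjusted p = 0.272). Cntn4 (-0.57), Cntnap3 (-0.56), Tenm1 (-0.40), Cntnap5b (-0.36), Tenm3 (-0.31) and Lphn2 (-0.31) were the others.

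Mme, neprilysin, a membrane peptidase that cleaves enkephalins and other peptides, was at 6.72 and 7.70 RPKM against 4.76 and 4.34. Its change was the smallest of the 7 (log2 change -0.69, SE 0.11, limma adjusted p = 0.0458), the groups did not overlap, and leaving out any of the 4 libraries ended the call (adjusted p = 0.274 to 0.504). Penk, the precursor of enkephalins, was at 226 and 243 against 200 and 184 (-0.39, adjusted p = 0.624). The opioid receptors Oprk1, at 3.55 and 6.17 against 3.18 and 2.20 (-0.81, adjusted p = 0.22), and Oprm1, at 1.44 and 2.45 against 1.36 and 1.1 (-0.54, adjusted p = 0.512), did not pass. Of 17 tested neuropeptide and hormone receptors, 4 were lower and 1 higher at an unadjusted p under 0.05, and of 9 neuropeptides 3 were lower. Over all genes 3.33% were lower and 3.76% higher at that threshold. Gpr149, an orphan receptor, was among the receptors at 1.68 and 1.68 against 0.816 and 0.878 (-0.76, adjusted p = 0.165). It passed the filter through the wild-type libraries alone.

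**Figure D3:**
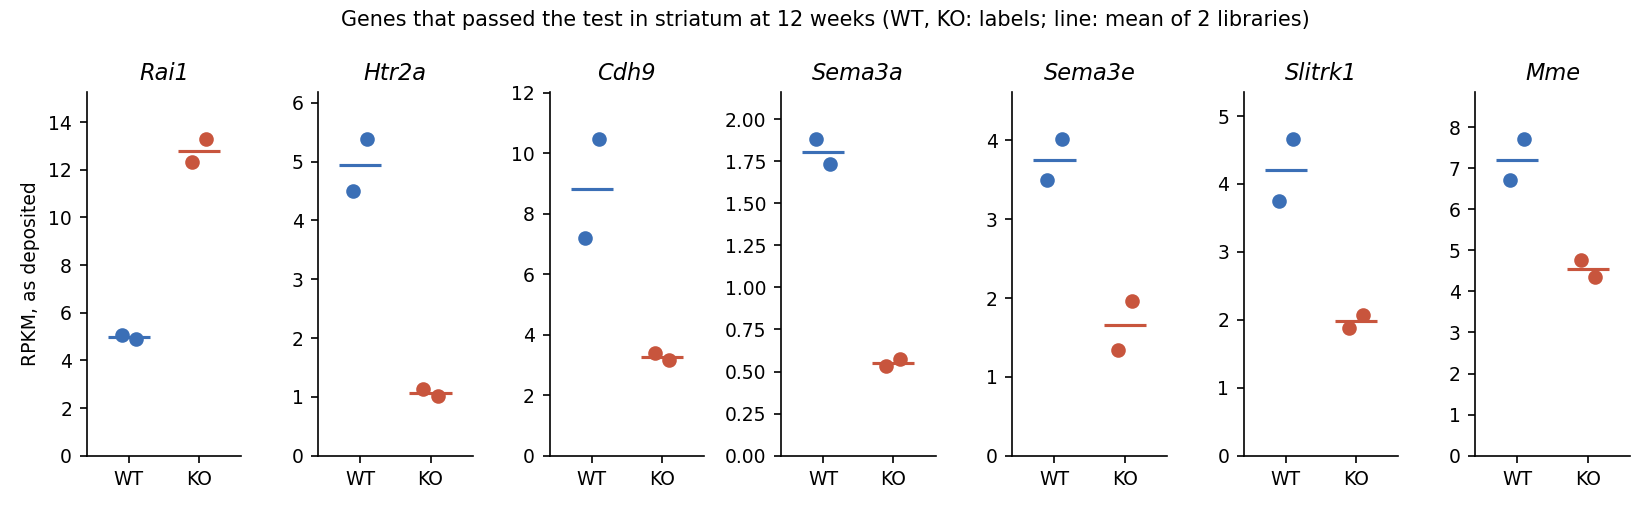
RPKM as deposited (y axis, from 0, a scale of its own for each gene) of the 7 genes that passed, for the 2 wild-type (blue) and 2 knockout (red) libraries, with a line at the mean of each group. In every panel the groups are apart, with Htr2a at 4.50 and 5.38 against 1.13 and 1.01 and Rai1 at 5.08 and 4.88 against 12.3 and 13.3. The genes were chosen by these same values.

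The genes next in order of p did not pass. Brinp3, a member of the BRINP family expressed in neurons, was at 2.64 and 3.01 RPKM against 1.55 and 1.49 (log2 change -0.79, limma adjusted p = 0.0542). Fstl5 was at 1.70 and 2.14 against 0.912 and 1.08 (-0.75, adjusted p = 0.0798), and Trib2 at 8.58 and 10.1 against 6.73 and 6.61 (-0.54, adjusted p = 0.0798). In the higher direction Ttr, Nt5c1a, Abhd3, Cdh4, 2700097O09Rik, 4833415N18Rik, Ptma, Hrsp12 and Chrna7 had the smallest p, with adjusted values from 0.0579 to 0.252. Nt5c1a, a cytosolic nucleotidase, was at 0.498 and 0.805 against 1.69 and 1.6 (0.85), and Chrna7, the alpha 7 nicotinic receptor subunit, at 4.25 and 5.22 against 7.60 and 6.35 (0.43). Nt5c1a and 2700097O09Rik passed the filter through the knockout libraries alone.

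Ttr, transthyretin, which choroid plexus makes in quantity, was at 1.24 and 0.854 RPKM in the wild-type libraries and at 3.09 and 2.95 in the knockout libraries (log2 change 1.12, limma adjusted p = 0.0579). Of 18 listed choroid plexus and ependyma genes 3 were tested, and 2 of these were higher and 0 lower with no overlap after scaling, against 20.9% and 19.8% of all tested genes. Of the 15 below the filter 7 were higher and 1 lower with no overlap, and the summed RPKM of the 18 was 5.93 and 6.09 against 9.75 and 10.2. Kcne2, Slc4a5 and Otx2, a channel subunit, a transporter and a transcription factor of choroid plexus, were each at 0 in at least 1 library and at no more than 0.0793 RPKM in any of the 4. Otx2, at 0.0171 and 0 against 0.0504 and 0.0793, was among the 7 higher genes. So was Rarres2, at 0.485 and 0.313 against 1.02 and 0.839, and Ccdc153 was the 1 lower gene. The part of choroid plexus RNA in the Ttr value was not tested.

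Among the listed receptors and channels none but Htr2a was called, and tissue libraries do not tell which cells its RNA came from. Over all genes 3.33% were lower and 3.76% higher at an unadjusted p under 0.05. Of 22 tested dopamine receptors and signalling genes 1 was lower at that threshold, Prkaca (-0.29), and none was called. Drd2 was at 41.5 and 51.0 RPKM against 44.5 and 43.8 (log2 change -0.15, limma adjusted p = 0.905). Of 14 GABA receptor subunits none reached an unadjusted p under 0.05, and of 20 glutamate receptor genes 2 were lower (Grm8, Grm3) and 1 higher (Grm4). Potassium channel genes and their KCTD partners held 8 lower and 2 higher of 55, with Kctd8, a GABA-B receptor auxiliary subunit, at 4.97 and 6.03 against 3.77 and 3.10 (-0.69, adjusted p = 0.113). Kctd12, of the same family, was at 10.2 and 11.8 against 8.68 and 7.36 (-0.53, adjusted p = 0.307).

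Gad2, the driver locus, for a GABA-synthesising enzyme, was at 29.9 and 38.1 RPKM against 25.2 and 22.5. The knockout libraries were both lower, and the change did not pass (log2 change -0.59, limma adjusted p = 0.165). Gad1, for the other isoform of the enzyme, was at 61.1 and 73.8 against 73.5 and 73.2, and the vesicular GABA transporter Slc32a1 at 15.8 and 17.4 against 16.2 and 17.6. Neither passed (adjusted p = 0.986 and 0.966). Markers shared by both kinds of spiny projection neuron had 0 lower and 1 higher of 21 at an unadjusted p under 0.05 and a median of 0.08, direct-pathway markers 1 lower of 10 (Eya1) and indirect-pathway markers 1 lower (Penk) and 1 higher (Adk) of 8. In such tissue samples fewer cells of a type and less RNA per cell cannot be told apart.

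Some markers of cortical excitatory neurons were higher in the wild-type libraries, replicate 2 above all, and others were not. Slc17a7, the vesicular glutamate transporter VGLUT1, was at 2.68 and 9.58 RPKM in the wild-type libraries and at 1.49 and 1.36 in the knockout libraries (log2 change -1.63, SE 0.43, limma adjusted p = 0.276), and at 113 and 129 in wild-type cortex at 3 weeks. Its log2 change was -0.92 without wild-type replicate 2 and -2.34 without wild-type replicate 1. Tbr1 was at 0.444 and 1.1 against 0.124 and 0.0907, and Neurod6 at 0.362 and 1.11 against 0.188 and 0.0986. Wild-type replicate 2 was the highest in all 3 genes. Of the 23 markers in the list 11 were tested, with a median log2 change of -0.00051, and 5 of these were lower and 0 higher with no overlap after scaling, against 19.8% and 20.9% of all tested genes. Rorb (0.01), Lamp5 (0.04), Etv1 (0.09), Tle4 (0.01) and Rasgrf2 (0.18) overlapped between the groups. Of the 12 markers below the filter 8 were lower and 0 higher with no overlap, and 13 of the 23 were highest in wild-type replicate 2. The summed RPKM was 124 and 160 against 131 and 123, of which Nrgn, at 48.4 and 51.5 in wild-type cortex, made up 55.7 and 70.3 against 61.3 and 58.8. None was at 0 in all 4 libraries. Cck, a neuropeptide of cortical and other neurons, followed at 2.84 and 8.42 against 2.05 and 2.56 (-1.04, adjusted p = 0.302).

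The adhesion and receptor genes were measured in the same cortex libraries. In wild-type cortex at 3 weeks Htr2a was at 6.16 and 6.21 RPKM, and in wild-type adult striatum at 4.50 and 5.38. Cdh9 (3.76 and 3.49), Sema3e (2.48 and 2.51) and Mme (0.922 and 0.807) were lower in that cortex than in wild-type adult striatum. Sema3a (2.56 and 2.24), Slitrk1 (15.8 and 15.4), Brinp3 (7.97 and 7.60) and Cdh18 (6.78 and 6.65) were higher there. These are deposited RPKM from libraries of another age, and the levels of the 2 regions were not tested against each other. Without wild-type replicate 2 the log2 change of Htr2a was -1.87 and that of Cdh9 -1.25, and both passed (limma adjusted p = 0.00105 and 0.00659). Sema3a passed too (-1.35, adjusted p = 0.0459), while Sema3e (-1.11) and Mme (-0.74) and Slitrk1 (-0.99) did not (adjusted p = 0.274 for each). Slc17a7 also stayed lower without wild-type replicate 2 (log2 change -0.92), so leaving out that library does not even out this cortical marker. The part of cortical RNA in the lower genes was not tested.

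**Figure D4:**
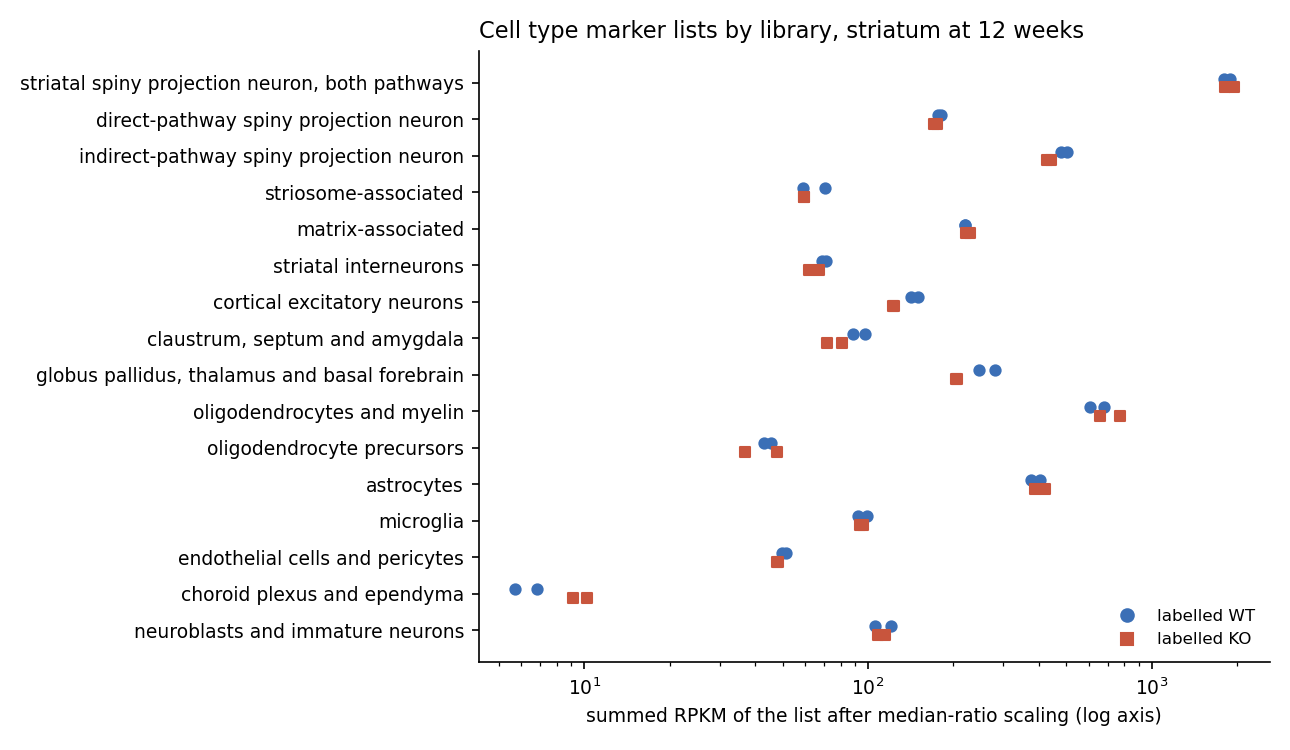
Summed RPKM after median-ratio scaling (x axis, log scale) of 16 cell type marker lists with at least 3 tested members (y axis), for wild-type (blue circles) and knockout (red squares) libraries. The groups overlap in 7 lists, among them the markers shared by both kinds of spiny projection neuron, and the knockout sums are lower in 7 and higher in 2. Of single tested genes 19.8% were lower and 20.9% higher with no overlap, and no such share was computed for sums of lists. Direct-pathway sums were 177 and 181 against 175 and 171, indirect-pathway sums 501 and 480 against 440.0 and 427, cortical excitatory neuron sums 142 and 150 against 122 and 124, and choroid plexus sums 6.80 and 5.68 against 9.09 and 10.2. Penk, which did not pass, is in the indirect-pathway list and in that of globus pallidus, thalamus and basal forebrain. As deposited it was at 226 and 243 against 200 and 184 RPKM. The deposited sums were 437 and 515 against 472 and 425 for the first list, and 244 and 264 against 221 and 203 for the second. Of the 8 tested indirect-pathway markers 4 had positive and 4 negative changes, with a median of -0.01.

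Myelin, astrocyte and housekeeping lists lay slightly toward the knockout libraries, and those of microglia and oligodendrocyte precursors slightly the other way. Myelin genes had 5 higher and 0 lower of 22 at an unadjusted p under 0.05 and a median of 0.12, with none called. Over all genes 3.76% were higher and 3.33% lower at that threshold. Mag, a myelin membrane protein, was at 23.2 and 26.3 RPKM against 33.3 and 36.5 (log2 change 0.40, limma adjusted p = 0.629), and Trf, transferrin, at 27.1 and 31.7 against 41.5 and 44.8 (0.45, adjusted p = 0.353). Astrocyte genes had 2 higher of 16, S100b (0.41) and Acsbg1 (0.33), and a median of 0.20. Microglial genes had none of 17 in either direction and a median of -0.04 (11 negative), and oligodendrocyte precursor genes none of 11 and a median of -0.05 (7 negative). Ribosomal protein genes had 7 higher of 74, a median of 0.20, and 43 with no overlap in the higher direction, against 20.9% of all genes. Rps12 was at 10.6 and 15.4 against 22.4 and 18.4 (0.55, adjusted p = 0.352). Respiratory chain genes had 5 higher and 1 lower of 59 and a median of 0.18. The number of ribosomal genes higher was 1 to 8, and of myelin genes 1 to 4, when each library was left out.

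The share of lower genes was highest among genes that span the most genome, a difference that was not tested. Spans from GENCODE annotation of GRCm38 were matched for 95.8% of tested genes. Among 10 equal groups by span, the group of longest genes began at 147920 bases. There 83 of 1011 were lower at an unadjusted p under 0.05 (8.21%), against 1.88% to 4.35% in the other groups, and 36 (3.56%) were higher. Cadherins, semaphorins and contactins of the lists stand in that group in part. Sema3a spans 477150 bases, Sema3e 231410 and Brinp3 407710, while Htr2a spans 68655 and Slitrk1 5359. The median log2 change in the longest group was -0.03 at 12 weeks, 0.14 in striatum at 3 weeks, -0.06 in cortex and 0.05 in hypothalamus, so the sets differed in sign.

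The juvenile set has the same region, driver and strain label. There Htr2a had a log2 change of -1.14 and Cdh9 of -1.01, and both passed (limma adjusted p = 0.00576 for each). Sema3a (-0.64) and Sema3e (-0.63) were on the same side without passing, Slitrk1 was at -0.07 and Mme at 0.26. The adult minus juvenile difference was -0.93 for Slitrk1 (SE 0.22, adjusted p = 0.253), -0.95 for Mme (SE 0.16, adjusted p = 0.0960) and -0.72 for Htr2a (SE 0.20, adjusted p = 0.291). No gene passed that test by limma, and 1330 (12.6%) reached an unadjusted p under 0.05. The non-clustered protocadherins had a median of 0.08 at 3 weeks, -0.32 in cortex and -0.17 in hypothalamus, beside -0.57 in adult striatum, and the classical cadherins -0.15, -0.30 and -0.22 beside -0.31.

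Against the mean of the other 3 sets, in which region, driver, strain and age differ together, 1 gene passed, Htr2a (0.00948% of genes). Its change in adult striatum was lower than that mean by a log2 difference of -1.19 (SE 0.16, limma adjusted p = 0.0384), and no gene passed without wild-type replicate 2 or knockout replicate 2. The call was also lost on deposited RPKM with no scaling, with a pseudocount of 1, with the filter of 1 RPKM in 2 of 16 libraries, with no variance trend and with a replicate block. At an unadjusted p under 0.05 this difference took 787 genes (7.46%). In cortex Htr2a was at 6.16 and 6.21 RPKM against 3.15 and 3.43, and in hypothalamus at 5.10 and 5.74 against 5.02 and 4.64. The hypothalamic groups were close (log2 change -0.08) and the cortical ones apart (-0.80, adjusted p = 0.029). Cdh9 had -0.83 in cortex (adjusted p = 0.0142) and -0.52 in hypothalamus. Sema3a had -0.59 and -0.73 there and Sema3e -0.48 and -0.38, none of them past the test.

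**Figure D5:**
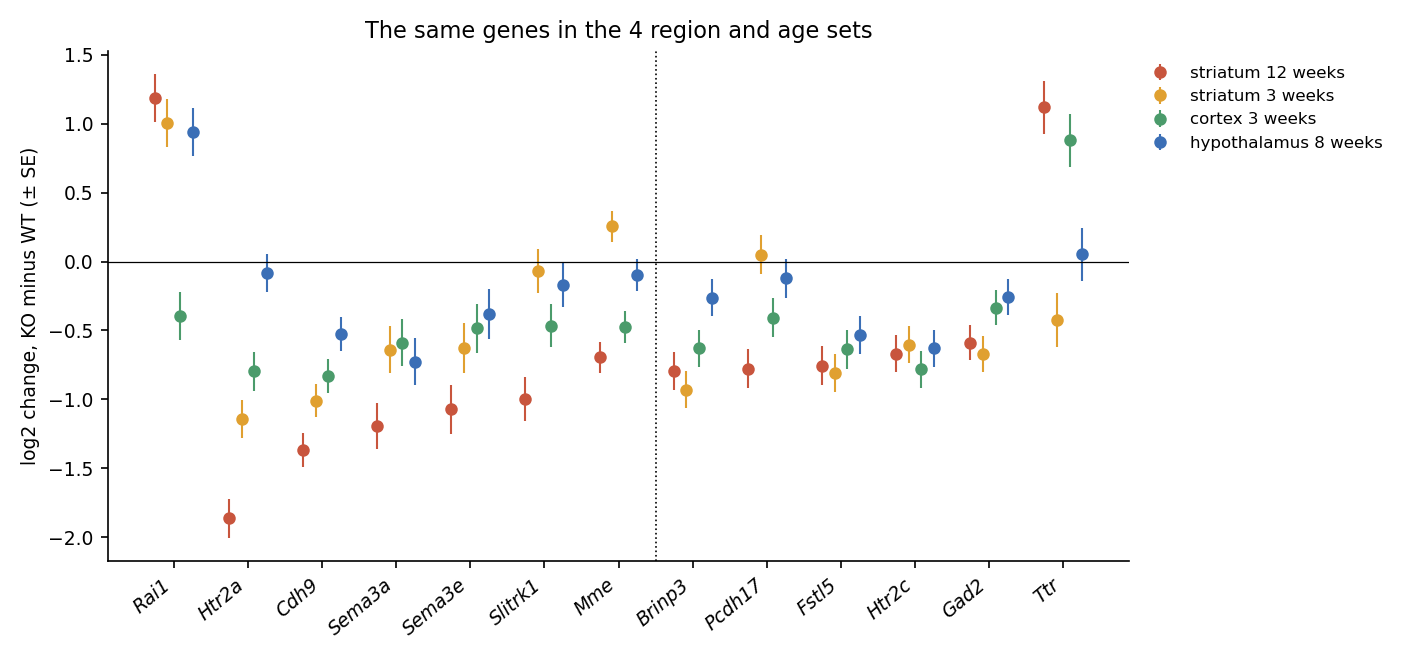
Log2 change, knockout minus wild type by the labels (y axis, bars are ± SE), of the 7 genes that passed in adult striatum (left of the dotted line) and 6 that did not (right), in the 4 region and age sets (colours). Htr2a reads -1.86 in adult striatum, -1.14 in juvenile striatum, -0.80 in cortex and -0.08 in hypothalamus, whereas Htr2c lies between -0.78 and -0.60 in all 4.

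Of the 6 lower genes, 6 had negative estimates in cortex, 6 in hypothalamus and 5 in juvenile striatum, sets that share no library with adult striatum. The share of genes with a negative estimate in those sets was 51.7%, 48.6% and 49.8% over all genes. Of the 350 genes that were lower at an unadjusted p under 0.05 with no overlap, 64.3% were negative in cortex, 59.7% in hypothalamus and 45.1% in juvenile striatum. Of 395 higher ones, 61.8%, 47.6% and 31.1% were positive. The difference between the sets in these shares was not tested.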

How the data were processed

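RPKM values for 24176 gene symbols in 16 libraries, as the authors deposited them, were used. Per the labels' protocols, RNA was extracted with Trizol from frozen tissue, and TopHat2, CASAVA 1.8.2, cutadapt 1.6 and the build mm9 are named in the submitters' processing notes. Not given in the sources used here are the strand setting, the read counter and the RPKM denominator, so values of antisense pairs, overlapping genes and close copies are uncertain.

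Values were divided by median-ratio factors, computed within each set of 4 libraries from genes at 1 RPKM or more in all 4 (9714 genes in adult striatum), and tested as log2(RPKM + 0.5) with limma 3.58.1 in R 4.3.3. The fit had a mean for each of 8 groups of 2, a variance trend and 8 residual degrees of freedom, with Benjamini-Hochberg adjustment over all tested genes and a threshold of 0.05. Differences between sets were contrasts of the same fit. A log2 change on this scale understates changes of low genes. The fit was also run on simulated data in which a gene had the same spread in every group. The real groups differed in median spread, and nothing reported here rests on the simulated outcome.

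Depth was estimated from RPKM steps in single-exon genes, of which 49.7% to 64.0% per library gave whole reads within 0.05 read, and it ran from 21668824 to 35526187 reads over the 16 libraries. Counts per gene from it are approximate and were not used in a test.

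The members, the 46 gene lists and the rule for named genes were chosen with earlier results of these data known. The rule took Rai1, all called genes, the genes of smallest p up to 10 per direction, up to 5 genes per list by p with any called member, genes called between sets, the highest member of each marker list and genes an earlier analysis had named. Other members named in the text (Cntn4, Cntnap3 and the like) were chosen after their values were seen. Alternatives were other scalings, pseudocounts, filters, variance models, thresholds, a replicate block and leaving out each library of adult striatum. The crossed block, the fit of striatal libraries and the list counts without single libraries were chosen after seeing the data.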

Additional observations from a re-analysis of the deposited data

Results flagged for a closer look

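Htr2a differed between the sets. Its log2 change was -1.86 in adult striatum, -1.14 in juvenile striatum, -0.80 in cortex and -0.08 in hypothalamus. The change in adult striatum minus the mean of the other 3 was -1.19 (SE 0.16, limma adjusted p = 0.0384), and both knockout libraries of adult striatum lay below both wild-type libraries. Region, Cre driver, strain label and age differ among these sets and cannot be told apart. No gene passed this test without wild-type replicate 2 or without knockout replicate 2 of adult striatum. No gene passed it either on deposited RPKM with no scaling, with a pseudocount of 1, with the filter of 1 RPKM in 2 of 16 libraries, with no variance trend, with a replicate block, direct or crossed, or at a threshold of 0.01.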

How the results depend on the processing

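Of 87 genes followed across the alternatives, 5 changed sign in adult striatum, all near 0 and not passing. On deposited RPKM with no scaling the log2 change of Drd1 was 0.062, of Pcdh1 0.038 and of Slc32a1 0.024. Without single libraries it ran from -0.081 to 0.018 for Drd1, -0.20 to 0.10 for Pcdh1, -0.18 to 0.040 for Slc32a1, -0.0093 to 0.24 for Scn4b and -0.016 to 0.082 for Gad1. The cause was not tested. Beside the 7 genes called in adult striatum, 4 were called with the filter of 1 RPKM in 2 of 16 libraries, 40 with weights per group, 2 with the 8 striatal libraries only, 12 at a threshold of 0.1 and 2 at a threshold of 0.01. The cause of the change with weights was not tested, though the median SD of replicates on the log2 scale was 0.0933 and 0.0754 in adult striatum and up to 0.156 in the other groups. With only the 4 compared libraries 6 genes passed, 3 higher and 3 lower, of which 4 were among the 7. Without single libraries 3 to 6 passed. Htr2a and Cdh9 passed in 19 of 19 alternatives other than thresholds, Rai1 in 13 of 19, Sema3a in 12 of 18, Slitrk1 in 10 of 19, and Sema3e and Mme in 7 of 19 each. Sema3a had 18 because the filter of 1 RPKM in all 4 libraries left it out. For adult minus juvenile striatum, with 0 calls, 1 gene passed with no filter on low values, 7 at a threshold of 0.1, and 0 to 5 without single libraries. For adult striatum minus the other 3 sets, with 1 call, 0 passed on deposited RPKM with no scaling, with a pseudocount of 1, with the filter of 2 of 16 libraries, with no variance trend and at a threshold of 0.01, and 0 to 2 without single libraries. The fit of only the compared libraries is the one reported for that difference, so that alternative has no value of its own. Without scaling the median log2 change of all genes was 0.086 in adult striatum, 0.21 for adult minus juvenile and 0.16 against the other 3 sets.

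Same-numbered libraries deviated together with correlations of -0.229 in adult striatum, 0.474 in juvenile striatum, -0.395 in cortex and 0.154 in hypothalamus, so the numbers were not taken to pair the samples. With a replicate block 2 genes passed in adult striatum, 0 for adult minus juvenile and 0 against the other 3 sets. With the crossed pairing in adult striatum as a replicate block, 5 genes passed, 0 for the difference from juvenile striatum and 0 for that from the other 3 sets. With 2 libraries a group, the median SE of a log2 change was 0.137, which limits what could be called.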
